A study of Mus musculus with 6 samples.

Results

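Kirrel2, Kirrel3, S100a5, Pcp4l1 and Lrrc3b form a small set of genes of mature olfactory sensory neurons whose level follows odour-driven activity, or, for Kirrel3, runs opposite to it. The 5 genes were taken by symbol from 21881 distinct symbols, and all 5 were among the 15067 genes whose mean over the 6 libraries reached 0.5 FPKM and which were tested. They were chosen by their known link to activity and with their KO and WT levels in these same libraries in view, so their genotype values are a description, without a test. The tissue was adult olfactory epithelium of NMRI mice. The KO group consisted of 3 libraries from NKCC1-/- mice, which lack the sodium, potassium and chloride cotransporter that Slc12a2 encodes, and the WT group of 3 libraries from wild-type mice. In each genotype 1 library was a pool of mixed sex with 2 epithelia of each sex, 1 was a pool of 3 male mice and 1 a pool of 3 female mice. Where 3 values of a genotype follow each other, they stand for its mixed, male and female pool in that order. No treatment is named for either group, and how the mutant allele was made is not stated in the sources used here.

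An odour that binds its receptor on the cilia raises cAMP, which opens a cyclic nucleotide-gated channel and lets calcium in. The calcium opens the chloride channel Ano2, and chloride leaves the cell because NKCC1 has loaded it, so that the transporter contributes to the size of the electrical response. Repeated activity over days also sets the transcription of a group of neuronal genes. Kirrel2 and Kirrel3 are homophilic adhesion proteins of the immunoglobulin superfamily that stand on olfactory axons in complementary patterns and help axons of like neurons to gather in one glomerulus. S100a5 is a calcium-binding EF-hand protein found mainly in olfactory neurons, Pcp4l1 is a small relative of the calmodulin-binding protein Pcp4, and Lrrc3b is a membrane protein with leucine-rich repeats. Omp, the olfactory marker protein, is the classical marker of mature olfactory neurons and served as their common measure.

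The deposited values are FPKM, fragments scaled to transcript length and to sequencing depth, so that levels can be compared between genes on a per-length scale. Depth estimated from the low values was about 4000000, 13000000 and 11600000 fragments in KO and 3600000, 14000000 and 11200000 fragments in WT. Slc12a2 measured 28.04, 16.1 and 18.01 FPKM in KO, against 83.3, 40.2 and 35.99 FPKM in WT. The targeted gene was thus below WT in every kind of pool without being absent. The median gene of all genes tested was at 81.4% of WT in the KO mixed, 84.3% in the KO male and 151% in the KO female pool. The 10 genes of highest FPKM in each library held 33.5, 34.4 and 16.9% of the summed FPKM in KO, against 15.5, 16.4 and 45.7% in WT. The KO mixed, KO male and WT female pools thus stood apart in composition, and the part of this in the ratios of single pools was not tested. All 11 genes of a list of mature neuron markers were measured, and Omp had the highest mean among them. The libraries had been treated with duplex-specific nuclease, an enzyme step that removes part of the commonest transcripts, and its effect on the values of S100a5 and Omp was not tested.

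The reference tables hold a promoter for 4 of the 5 genes, and these 4 were the ones at a lower level in every KO library. The 250 bases before an annotated transcript start (RefSeq, GRCm38.p6) are printed so that the promoters of genes that were lower together can be read side by side, with every CpG in capitals. They lie at chr7:30457516-30457765 on the minus strand for Kirrel2, chr3:90608272-90608521 on the plus strand for S100a5, chr1:171196269-171196518 on the minus strand for Pcp4l1 and chr14:15438988-15439237 on the minus strand for Lrrc3b. For Kirrel2, Pcp4l1 and Lrrc3b the window ends where the gene begins. For S100a5 it precedes a transcript start 2042 bases inside the annotated gene, so that the window itself lies within the gene.
Kirrel2: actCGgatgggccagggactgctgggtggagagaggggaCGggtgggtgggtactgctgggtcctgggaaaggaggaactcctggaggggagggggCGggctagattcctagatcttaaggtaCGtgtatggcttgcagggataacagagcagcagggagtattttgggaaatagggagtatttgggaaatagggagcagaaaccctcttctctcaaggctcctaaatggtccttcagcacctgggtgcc
S100a5: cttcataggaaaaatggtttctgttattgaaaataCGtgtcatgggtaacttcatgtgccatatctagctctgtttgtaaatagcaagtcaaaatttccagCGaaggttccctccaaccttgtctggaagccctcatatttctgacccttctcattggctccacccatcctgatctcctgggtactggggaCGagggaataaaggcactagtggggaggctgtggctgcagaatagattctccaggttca
Pcp4l1: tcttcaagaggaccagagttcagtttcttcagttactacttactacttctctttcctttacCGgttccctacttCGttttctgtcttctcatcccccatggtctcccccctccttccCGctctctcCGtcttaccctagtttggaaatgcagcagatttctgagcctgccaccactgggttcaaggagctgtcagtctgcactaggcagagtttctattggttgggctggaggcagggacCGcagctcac
Lrrc3b: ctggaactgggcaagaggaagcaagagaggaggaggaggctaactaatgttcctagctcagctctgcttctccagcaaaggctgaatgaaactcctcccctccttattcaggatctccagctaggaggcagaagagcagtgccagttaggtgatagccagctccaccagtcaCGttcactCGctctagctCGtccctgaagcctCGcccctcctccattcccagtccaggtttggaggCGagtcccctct
The 4 stretches hold 4 (Kirrel2), 3 (S100a5), 5 (Pcp4l1) and 5 (Lrrc3b) CpG, where the median of 32851 annotated promoters of the same length is 6 and the quartiles are 2 and 16. Their GC content was 56.4% for Kirrel2, 46.0% for S100a5, 51.6% for Pcp4l1 and 56.0% for Lrrc3b. Searched on both strands, none of them contains the cAMP response element TGACGTCA, which 1.55% of all promoters contain, or its 5-base core TGACG, which lies within the full element and which 17.8% contain. None contains the AP-1 site TGANTCA (6.75% of promoters), the E-box CACGTG (6.02%), an O/E-like palindrome (0.779%), the homeodomain core TAATTA (4.84%) or a MEF2-type pattern (3.20%). These letters are not in these windows, and nothing is read from that about the factors.

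Kirrel2 showed the largest difference of the set. Its level was 40.1, 88.1 and 109 FPKM in KO, against 267, 392 and 177 FPKM in WT. Every KO library lay below every WT library, and the gap was narrowest between the KO female pool at 109 and the WT female pool at 177. The mean was 78.96 ± 35.2 FPKM in KO and 279 ± 108 FPKM in WT (SD, n = 3 each), which places KO at 28.3% of WT. The difference on the log2(FPKM + 1) scale was -1.85 ± 0.37 (SE), which ranked 30 from the lowest of 15067 genes.

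S100a5 was the most abundant of the 5 genes and stood above Omp in the WT libraries. It measured 1094, 1585 and 1261 FPKM in KO, against 3372, 3918 and 2827 FPKM in WT. The highest KO library, at 1585, stayed well below the lowest WT library, at 2827. The means were 1313 ± 249 FPKM in KO and 3372 ± 546 FPKM in WT (SD, n = 3 each), and the log2 difference was -1.36 ± 0.34 (SE).

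Pcp4l1 followed the same order of libraries as Kirrel2 in both genotypes. Its level was 169, 210.4 and 229 FPKM in KO, against 458, 597 and 370.3 FPKM in WT. In KO the female pool was the highest and in WT the lowest, and the genotypes did not overlap. The means were 203 ± 30.8 FPKM in KO and 475 ± 114 FPKM in WT (SD, n = 3 each), with a log2 difference of -1.21 ± 0.26 (SE).

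Lrrc3b was the least abundant of the 4 genes with a lower level. It measured 21.2, 40.99 and 45.2 FPKM in KO, against 69.4, 103 and 56.6 FPKM in WT. The genotypes did not overlap, but the KO female pool at 45.2 came close to the WT female pool at 56.6. The means were 35.8 ± 12.8 FPKM in KO and 76.2 ± 23.7 FPKM in WT (SD, n = 3 each), with a log2 difference of -1.10 ± 0.31 (SE).

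Kirrel3, whose pattern among olfactory neurons is complementary to that of Kirrel2, did not have a higher mean in KO. It measured 6.73, 4.14 and 8.42 FPKM in KO, against 14.3, 7.79 and 5.18 FPKM in WT, and the genotypes overlapped. The means were 6.43 ± 2.16 FPKM in KO and 9.08 ± 4.69 FPKM in WT (SD, n = 3 each), and the log2 difference of -0.38 ± 0.35 (SE) was about as large as its error. Without the WT mixed library, the highest of the 6, the difference was -0.03, and it was -0.68 once the WT female pool was left out. Kirrel3 was also the gene with the least counting precision. With its shortest annotated coding transcript its values stand for about 16, 32 and 58 fragments in KO and 31, 65 and 35 in WT, where Kirrel2 has 68, 487 and 536 in KO and 408, 2333 and 842 in WT. Kirrel3 has 8 annotated coding transcripts of 746 to 4147 nt, so that these numbers are approximate. Kirrel3 overlaps 3 annotated genes, among them its antisense gene Kirrel3os, and Kirrel2, Lrrc3b and Omp overlap 1 each, Omp with Capn5 (GRCm38.p6). The sources used here do not say whether the counting used strand.

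**Figure D1:**
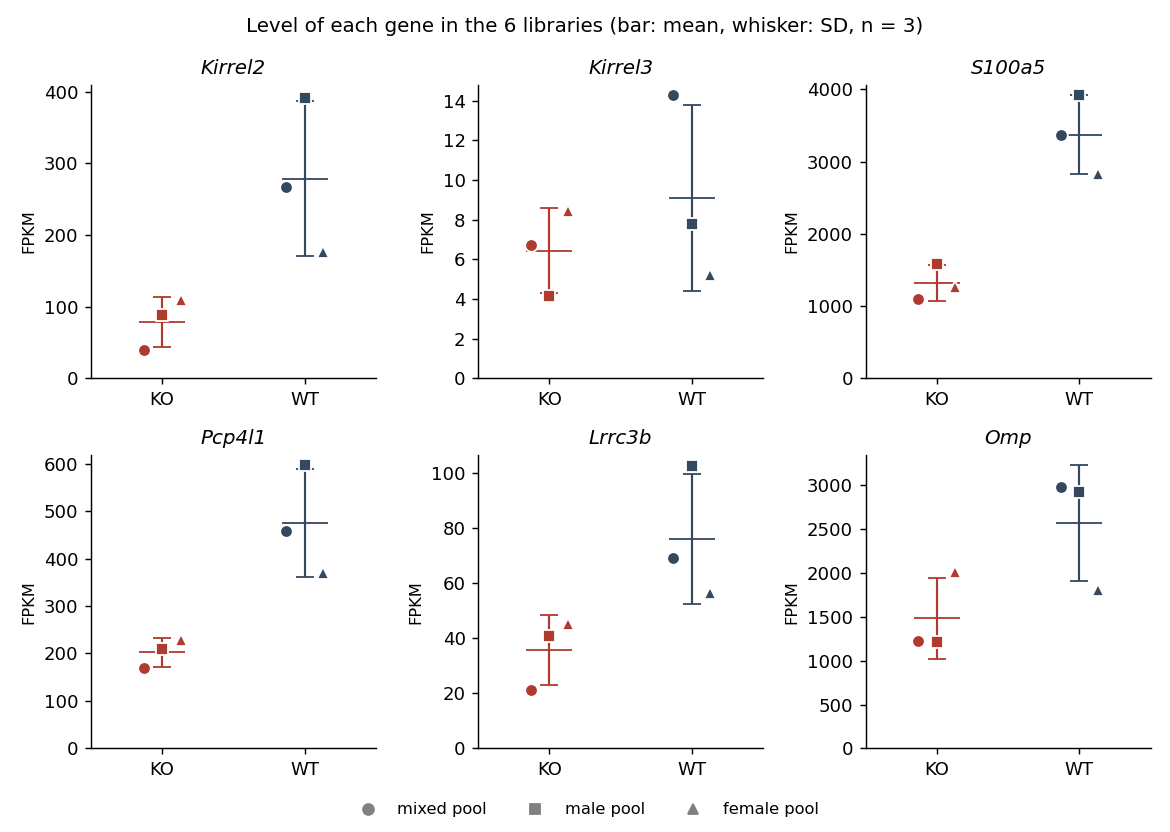
FPKM (vertical axis, linear, 1 scale per gene) of the 5 activity-linked genes and Omp in KO (left) and WT (right) libraries. Points are libraries by kind of pool, the long bar is the mean and the whisker the SD of 3 libraries. Kirrel2, S100a5, Pcp4l1 and Lrrc3b have no KO point as high as the lowest WT point, whereas Kirrel3 and Omp overlap.

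Set against all genes, 4 of the 5 members were lower without overlap of the libraries, as were 5.24% of the 15067 genes tested, while 7.46% were higher without overlap. All 5 had a negative difference, as had 47.9% of the genes tested. At an adjusted p under 0.05 in limma, 1 of the 5, Kirrel2, was among the genes lower in KO, as were 0.624% of all genes. Since this contrast was in view when the genes were proposed, neither count is support for the set. The second count rests on single libraries. It was 0 of 5 without the KO mixed, the KO female or the WT male library, and 3 of 5 without the WT mixed or the WT female library. Errors of the differences of single genes are limma's moderated errors, which are pulled toward a trend over all genes. For S100a5 the error was 0.34, and 0.25 with a prior variance without trend. Errors relative to Omp and of the Kirrel2 to Kirrel3 ratio are plain errors over the libraries. Both kinds start from the spread between pools of animals, and whether the pools share animals is not stated.

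The ratio of Kirrel2 to Kirrel3 was 5.95, 21.3 and 12.9 in KO, against 18.7, 50.4 and 34.1 in WT. In each kind of pool the KO ratio was below the WT ratio, but across pools the genotypes overlapped, with the KO male pool above the WT mixed pool. The log2 difference of the ratio was -1.47 ± 0.64 (SE, n = 3 each). In the mixed, male and female pools Kirrel2 itself was at 15.02, 22.5 and 61.4% of WT. Kirrel3 was at 47.1, 53.2 and 163%, and the median gene at 81.4, 84.3 and 151%. Kirrel2 was chosen with this contrast in view, and its own lower level enters the ratio. The ratio is therefore no separate support for a change of the complementary pattern.

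Omp, the measure of mature neurons, was itself at 1220.0, 1209 and 2012 FPKM in KO, against 2977, 2926 and 1800.1 FPKM in WT. The KO female pool held more Omp than the WT female pool, and the genotypes overlapped. Within the mixed, male and female pools Omp was at 41.0, 41.3 and 112% of WT. The median gene was at 81.4, 84.3 and 151%, above Omp in each kind of pool. Omp differed by -0.80 ± 0.37 (SE) on the log2 scale and did not pass over all genes (limma, adjusted p = 0.55). In a bulk sample fewer mature neurons and less RNA per neuron cannot be told apart, and the ratio to Omp is a measure per unit of Omp RNA, not per cell.

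Kirrel2 remained lower per unit of Omp. Its level per Omp was 3.29, 7.28 and 5.40% in KO, against 8.96, 13.4 and 9.83% in WT, without overlap. The log2 difference relative to Omp was -1.05 ± 0.37 (SE, n = 3 each). Of all genes tested, 1.12% were lower relative to Omp without overlap of the libraries, and 1 of the 5 members was.

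S100a5 stood at 89.7, 131 and 62.7% of the Omp level in KO, against 113, 134 and 157% in WT. The male pools differed least between genotypes and the female pools most. The log2 difference relative to Omp was -0.56 ± 0.34 (SE). Without both female pools, a choice made after the data were seen, it was -0.18.

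Pcp4l1 stood at 13.8, 17.4 and 11.4% of the Omp level in KO, against 15.4, 20.4 and 20.6% in WT, with a log2 difference of -0.41 ± 0.22 (SE). Lrrc3b stood at 1.74, 3.39 and 2.24% of it in KO, against 2.33, 3.51 and 3.15% in WT, with a log2 difference of -0.30 ± 0.32 (SE). For both genes each KO pool lay below the WT pool of its kind while the genotypes overlapped. The share of all genes that did so was not counted. Of 2 mature neuron markers measured in the same way, Cnga2 did so as well, at 98.1, 93.9 and 80.6% of WT per unit of Omp. The other, Rtp1, was at 126, 112 and 124%.

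Kirrel3 went the other way per unit of Omp, at 0.552, 0.342 and 0.419% in KO, against 0.480, 0.266 and 0.288% in WT. It was higher in KO in each kind of pool, with overlap across pools, and the log2 difference relative to Omp was 0.42 ± 0.29 (SE, n = 3 each). Relative to Omp, 64.7% of all genes tested were higher in KO without overlap of the libraries, so that a higher value per unit of Omp was common.

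**Figure D2:**
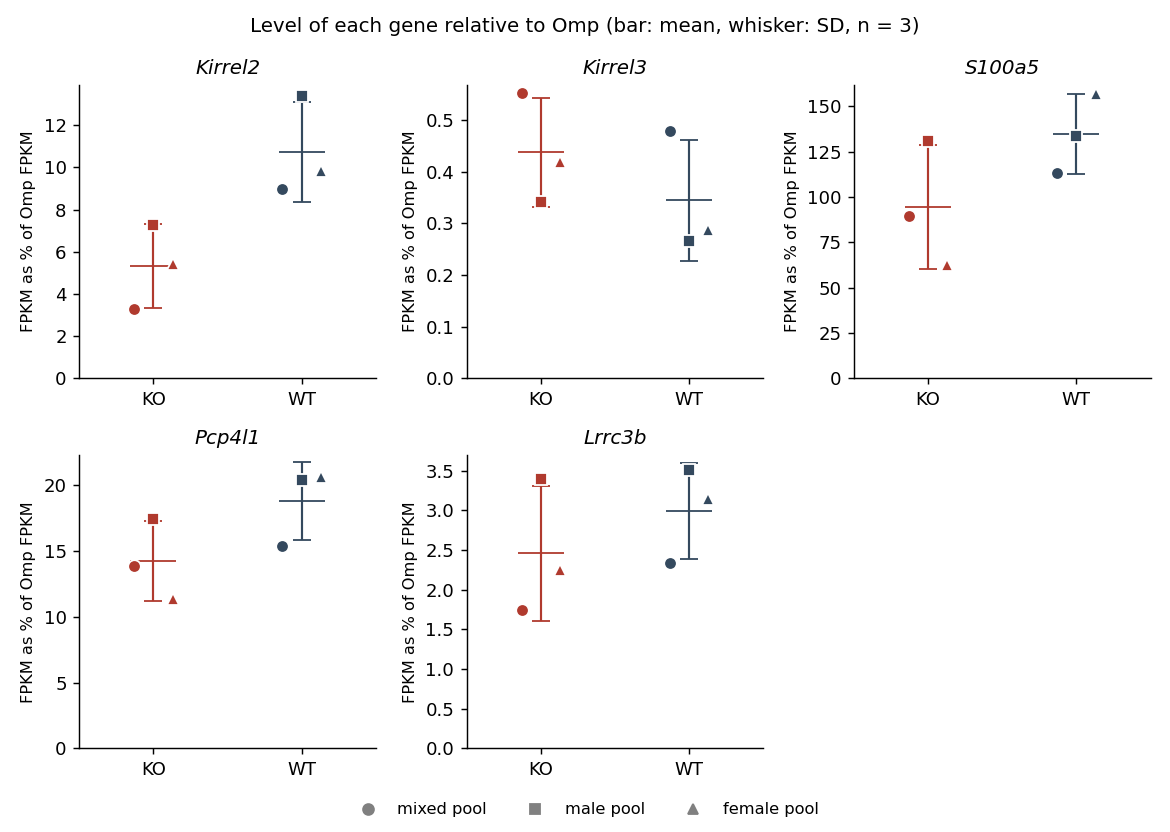
Level of each gene as a percentage of the Omp level in the same library (vertical axis, linear), KO left and WT right. Points are libraries by kind of pool, bars are means and whiskers SD (n = 3 each). Kirrel2 alone of the 5 shows no overlap, at 3.29 to 7.28% in KO and 8.96 to 13.4% in WT.

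Within each kind of pool, Kirrel2 in KO was at 15.02, 22.5 and 61.4% of its WT level. The same percentages were 32.4, 40.4 and 44.6% for S100a5, 36.9, 35.2 and 61.8% for Pcp4l1, and 30.6, 39.96 and 79.7% for Lrrc3b. These 4 genes were below WT in each kind of pool, as were 8.28% of all genes tested. For Kirrel3 the percentages were 47.1, 53.2 and 163%, and for Omp they were 41.0, 41.3 and 112%. Among the 5 genes S100a5 varied least between kinds of pool, and in the female pools it was the lowest of the set.

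**Figure D3:**
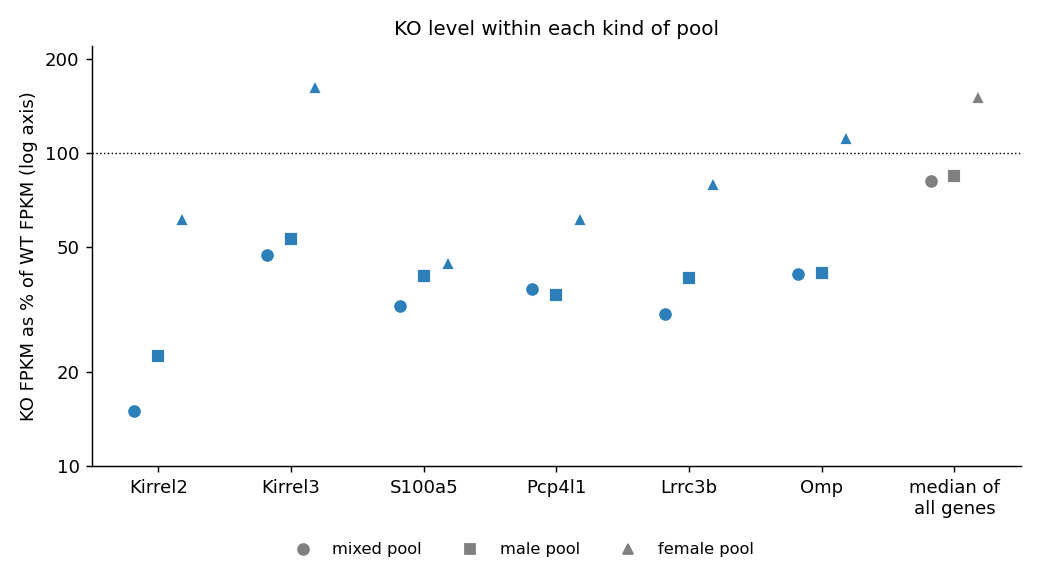
KO FPKM as a percentage of WT FPKM within each kind of pool (vertical axis, logarithmic) for the 5 genes, Omp and the median of all genes tested. The dotted line marks 100%. In the female pools Kirrel2, S100a5, Pcp4l1 and Lrrc3b lie at 44.6 to 79.7%, below Omp at 112% and the median gene at 151%.

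Sex of the pool, which the rule for the genes did not use, was tested as the female share of the pool beside genotype. The log2 difference between a fully female and a fully male pool was -0.42 ± 0.42 (SE) for Kirrel2, 0.18 ± 0.45 for Kirrel3, -0.40 ± 0.54 for S100a5, -0.28 ± 0.40 for Pcp4l1 and -0.35 ± 0.38 for Lrrc3b. None passed (limma, adjusted p of 1 for each, and unadjusted p from 0.33 to 0.69), where 0.0996% of all genes did and 0.743% had an unadjusted p under 0.05. The 95% intervals were wide and ran from -1.28 to 0.44 for Kirrel2 and from -1.50 to 0.70 for S100a5. The product of genotype and female share, which asks whether the KO difference varied with sex, was 1.44 ± 0.75 (SE) for Kirrel2, 1.38 ± 0.84 for Kirrel3, 0.14 ± 1.03 for S100a5, 0.81 ± 0.70 for Pcp4l1 and 0.98 ± 0.69 for Lrrc3b. None of these passed either (limma, adjusted p from 0.68 to 0.94), where 0.126% of all genes did and 4.15% had an unadjusted p under 0.05. Each genotype had 1 male and 1 female pool, and this fit left 2 residual degrees of freedom. The median gene was itself at 84.3% of WT for male pools and at 151% for female pools. With libraries scaled to equal medians the product was lower for each gene. It was then 0.53 for Kirrel2, 0.59 for Kirrel3, -0.78 for S100a5, -0.11 for Pcp4l1 and 0.07 for Lrrc3b. Whether sex or a shift of single libraries lay behind the product was not tested. With a library left out, fewer than these 2 residual degrees of freedom remained, so the products that follow are given by size only. Without the WT male pool the product for Kirrel3 was 3.49, and it was -0.72 once the WT female pool was left out. For Kirrel2, S100a5 and Lrrc3b it turned negative without the KO female library, at -1.09, -0.60 and -0.99.

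Other axon-sorting molecules linked to odour-driven activity had differences of both signs. Of 6 tested, 1 rose and 0 fell over all genes tested, where 0.212% of all genes rose and 0.624% fell, and the median log2 difference was 0.02 against 0.01 for all genes. The one that rose was Pcdh10, a non-clustered protocadherin of olfactory axons. It measured 29.6, 33.3 and 35.7 FPKM in KO, against 11.9, 11.6 and 3.84 FPKM in WT. The KO libraries lay close together and far above all WT libraries, with a log2 difference of 1.87 ± 0.34 (SE, limma adjusted p = 0.023). The call ended when the KO mixed pool was left out (limma, adjusted p = 0.075), when the KO female pool was (0.147), or with no filter on low genes (0.167). Epha5, an ephrin receptor, was at 3.37, 3.34 and 3.25 FPKM in KO, against 9.02, 7.26 and 4.88 FPKM in WT, without overlap (log2 difference -0.87 ± 0.27 SE, limma adjusted p = 0.24). Its ligand Efna5, an ephrin, averaged 11.97 ± 4.58 FPKM in KO and 8.53 ± 4.44 FPKM in WT, and the contactin Cntn4 49.3 ± 10.8 FPKM in KO and 67.9 ± 34.4 FPKM in WT (SD, n = 3 each). Neither of them passed (limma, adjusted p = 0.94 and 1).

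Hist2h2be encodes a histone H2B variant of olfactory neurons that is known to be more abundant in neurons with little activity. It averaged 116 ± 35.9 FPKM in KO and 216 ± 79.2 FPKM in WT (SD, n = 3 each), and the KO female pool, at 148, overlapped the WT female pool, at 133. That is 111% of WT in the female pools, where the median gene was at 151%. The log2 difference of -0.86 ± 0.32 (SE) did not pass over all genes (limma, adjusted p = 0.35), and of the settings run only the one that left out the WT female pool put it past the threshold (adjusted p = 0.029).

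Immediate early genes, which respond to calcium and cAMP within minutes to hours in many cell types, were measured in 12 of 16 cases, while Fosb, Egr2, Egr4 and Npas4 stayed below the filter. None passed, and at an unadjusted p under 0.05 in limma 4 were higher and 0 lower, where 4.26% of all genes were higher and 4.62% lower. The 4 were Egr1, Fosl2, Junb and Nr4a3, the last averaging 0.915 FPKM over the 6 libraries. Of the 12, 11 had a positive difference, where 47.9% of all genes tested were negative. Their median was 0.39, against 0.01 for all genes. Egr1, a zinc finger transcription factor, averaged 6.84 ± 2.79 FPKM in KO and 3.63 ± 0.779 FPKM in WT, Fos 5.61 ± 2.11 FPKM in KO and 3.47 ± 0.676 FPKM in WT, Fosl2 5.68 ± 1.38 FPKM in KO and 3.31 ± 0.953 FPKM in WT, and Junb 20.3 ± 4.84 FPKM in KO and 11.8 ± 2.41 FPKM in WT (SD, n = 3 each). In the male pools Egr1, Fos and Fosl2 were at 94.2, 86.4 and 95.5% of WT, and the genotypes overlapped for each of them. Junb and Nr4a3 were at 122 and 194% in the male pools. These 2 of the 12 were higher in KO without overlap, as were 7.46% of all genes tested. Immediate early genes are not particular to neurons, and the epithelium holds many other cells.

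Genes of the transduction cascade pointed the same way as Omp without passing. All 12 tested had a negative difference with a median of -0.70, and 0 passed, with 6 at an unadjusted p under 0.05 in limma. Over all genes 47.9% were negative and 4.62% were lower at that unadjusted p. The negative differences came from the mixed and male pools more than from the female pools. The list summed to 1865, 1631 and 2578 FPKM in KO, against 4263, 3620 and 2320 FPKM in WT. In the female pools Cnga2 and Cnga4 were at 90.0 and 90.5% of WT, and the other genes of the list were above WT. The median gene was at 151% there. The channel subunit Cnga4 averaged 69.5 ± 16.8 FPKM in KO and 145 ± 44.8 FPKM in WT, and Cnga2 148 ± 36.4 FPKM in KO and 286 ± 68.98 FPKM in WT (SD, n = 3 each), both without overlap. The chloride channel Ano2 averaged 40.04 ± 7.17 FPKM in KO and 69.96 ± 23.9 FPKM in WT, and the phosphodiesterase Pde1c 37.9 ± 7.07 FPKM in KO and 69.9 ± 26.7 FPKM in WT. Cnga2, Cnga4, Gnal, Adcy3 and Gng13 also stand in the list of mature neuron markers, so that the counts of these lists are not separate. Of the 11 mature neuron markers all were negative with a median of -0.74, 0 passed and 6 had an unadjusted p under 0.05 in limma. They summed to 3638, 3443 and 5741 FPKM in KO, against 9034, 8268 and 5024 FPKM in WT, so that the female pools again went the other way. Among them the receptor transport protein Rtp2 averaged 88.8 ± 17.8 FPKM in KO and 168 ± 35.5 FPKM in WT, and Stoml3, a stomatin of olfactory cilia, 756 ± 226 FPKM in KO and 1537 ± 445 FPKM in WT. The 5 activity-linked genes had a median of -1.21. They were chosen with this contrast in view, so their lower median is no support for a difference from these lists. Without the WT female library 6 transduction genes and 4 mature neuron markers passed, where 3.01% of all genes fell. When each library was scaled to an equal median, 3 of each list did, where 1.28% of all genes fell.

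**Figure D4:**
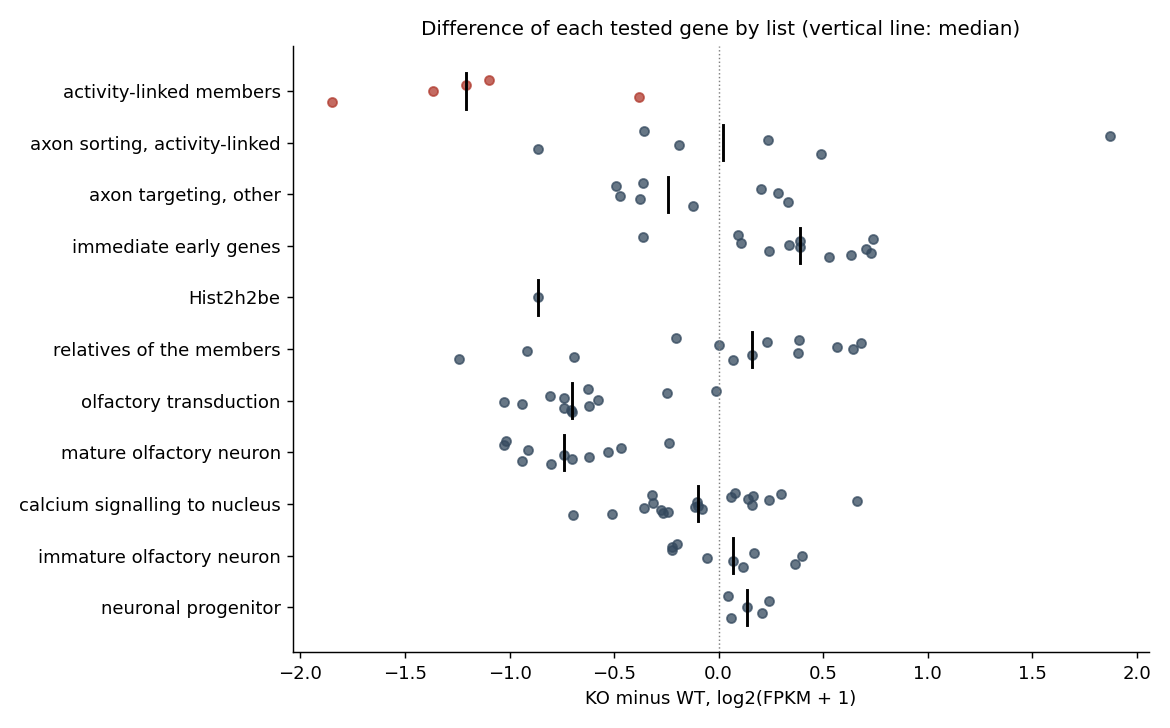
Difference between KO and WT on the log2(FPKM + 1) scale (horizontal axis) for each tested gene, with 1 row per list and a vertical line at the list's median. Red points are the 5 activity-linked genes, chosen with this contrast in view, with a median of -1.21. The transduction and mature neuron lists, which share genes, have medians of -0.70 and -0.74. The immature neuron and progenitor lists have medians of 0.07 and 0.14, and Pcdh10 is the point farthest to the right.

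Relatives of the 5 genes had differences of both signs. Of 13 tested, 0 passed, with 3 higher and 2 lower at an unadjusted p under 0.05 in limma, against 4.26% higher and 4.62% lower among all genes, and the median difference was 0.16. Nphs1, or nephrin, which binds Kirrel proteins in the kidney filter, was at 1.41, 0.955 and 1.21 FPKM in KO, against 7.34, 3.49 and 2.68 FPKM in WT, without overlap (log2 difference -1.24 ± 0.31 SE, limma adjusted p = 0.10). Kirrel, the third member of the Kirrel family, averaged 13.5 ± 3.25 FPKM in KO and 13.9 ± 8.03 FPKM in WT (SD, n = 3 each). The calcium-binding relatives of S100a5 did not share a direction, and none of them passed. S100a3 averaged 2.80 ± 1.88 FPKM in KO and 5.65 ± 1.49 FPKM in WT, S100a4 66.8 ± 7.37 FPKM in KO and 42.4 ± 4.65 FPKM in WT, and S100a11 281 ± 70.2 FPKM in KO and 174 ± 35.6 FPKM in WT. Pcp4, the relative of Pcp4l1, was at 0.465 to 1.33 FPKM in the KO libraries and at 0.944, 1.12 and 6.91 FPKM in WT, so that the WT female pool stood apart.

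Markers of other cells that can express some of the 5 genes were also examined. Among 10 markers of olfactory bulb and brain 7 were tested and 0 passed. Only Slc17a6 was lower at an unadjusted p under 0.05 in limma, as were 4.62% of all genes, and none was higher. Slc17a6, a glutamate transporter that olfactory neurons also use, averaged 25.8 ± 4.03 FPKM in KO and 46.7 ± 17.00 FPKM in WT. Cdhr1, which is seen in olfactory neurons as well, averaged 29.1 ± 8.13 FPKM in KO and 42.03 ± 16.01 FPKM in WT. Of the bulb and brain markers that neurons of the epithelium should lack, Mog was listed at 0 in 4 libraries and reached 0.110 FPKM at most, and Tbx21 reached 0.363 FPKM at most. Slc32a1, a transporter of inhibitory transmitters, was at 0, 0.251 and 0.0376 FPKM in KO, against 0, 0.649 and 1.13 FPKM in WT. Th, an enzyme of dopamine synthesis in bulb neurons, was at 0.155, 0.395 and 0.205 FPKM in KO, against 0, 1.47 and 2.57 FPKM in WT, and the glutamate transporter Slc17a7 was at 0.611, 0.505 and 0.368 FPKM in KO, against 0.223, 1.01 and 2.08 FPKM in WT. The glial gene Gfap was at 0.460, 1.28 and 0.953 FPKM in KO, against 0.584, 1.38 and 2.31 FPKM in WT. Slc32a1, Th, Slc17a7 and Gfap were thus each highest in the WT female pool, as was Pcp4. The whole list summed to 111 to 173 FPKM in KO and 133 to 231 FPKM in WT, most of it from Slc17a6, Cdhr1 and the water channel Aqp4 at 61.1 to 110 FPKM, so that the sum says little of bulb or brain. The part of such tissue in the values of Kirrel3 and Pcp4l1, which brain neurons also express, was not tested. For vomeronasal neurons, which express Kirrel2 and Kirrel3, the channel Trpc2 averaged 3.65 ± 0.918 FPKM in KO and 3.07 ± 1.07 FPKM in WT, Calr4 reached at most 0.961 FPKM, and the summed level of 317 vomeronasal receptor genes was 2.03 to 9.59 FPKM in KO and 1.95 to 4.46 FPKM in WT.

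None of the 9 genes of immature olfactory neurons and none of the 5 of progenitors passed, and none had an unadjusted p under 0.05 in limma. Gng8, a G protein subunit of immature neurons, averaged 18.5 ± 3.68 FPKM in KO and 14.4 ± 4.46 FPKM in WT, and Tubb3, a neuronal tubulin, 119 ± 31.5 FPKM in KO and 141 ± 45.8 FPKM in WT. The progenitor factor Neurod1 averaged 6.22 ± 1.63 FPKM in KO and 5.73 ± 2.52 FPKM in WT (SD, n = 3 each). Of 3 horizontal basal cell genes 0 passed, with 2 higher at an unadjusted p under 0.05 in limma, as were 4.26% of all genes. Among them the keratin Krt5 averaged 51.4 ± 15.5 FPKM in KO and 28.9 ± 8.96 FPKM in WT, and the keratin Krt14 averaged 31.00 ± 11.9 FPKM in KO and 16.4 ± 4.13 FPKM in WT. None of the 4 sustentacular or the 4 ensheathing cell genes passed. The sustentacular gene Cyp2g1 averaged 1926 ± 858 FPKM in KO and 2559.8 ± 522 FPKM in WT, and the ensheathing cell gene Fabp7 81.1 ± 9.51 FPKM in KO and 103 ± 20.96 FPKM in WT.

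Among 9525 genes averaging 5 FPKM or more, those whose log2 values over the 6 libraries were most like each member's were listed by Pearson's r, as a description of these libraries. For Kirrel2 they were Schip1, Ier5, Dbndd2, Ubl3 and Cacybp, with r from 0.98 to 0.99. For Lrrc3b they were Ier5, Dbndd2, Mpv17, Cycs and Gm71, with an r of at least 0.975, so that Ier5 and Dbndd2 stood in both lists. For S100a5 they were 2810001G20Rik, Olfr124, Olfr180, Kcnmb3 and Olfr297, and for Pcp4l1 Dlg2, Olfr124, Kcnmb3, Mboat2 and Olfr533, so that the odorant receptor Olfr124 and the potassium channel subunit Kcnmb3 were shared. For Kirrel3 they were Rnf182, 2700007P21Rik, Tef, Herc4 and Cdkl2, all with an r of at least 0.99, and none of them stood in another member's list. Omp had an r of 0.90 with Kirrel2, 0.89 with Pcp4l1, 0.86 with Lrrc3b, 0.79 with S100a5 and 0.76 with Kirrel3. Among the 9525 genes it ranked 166 for Kirrel2, 177 for Pcp4l1, 240 for Lrrc3b and 271 for S100a5, but 3806 for Kirrel3. All these values share the same 6 libraries, their depth and the difference between genotypes.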

How the data were processed

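Olfactory epithelium RNA of 3 KO and 3 WT pools was sequenced. Per the labels' protocols, RNA was column-purified with a DNase step and libraries were normalised with duplex-specific nuclease. Per the submitters' processing notes, TopHat2 2.0.7, Bowtie, Cufflinks 1.3.3 and Cuffdiff were used with the build mm9; the annotation and the settings were not stated. The deposited table holds 1 value per symbol and library, read as the authors' FPKM from the form of the header and the values. A column that names no sex was read as its genotype's mixed pool, by elimination.

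Of 22310 rows, 221 symbols had several, of which the one with the highest mean was used. Gfy was found under its older symbol Gm581. Values were analysed as log2(FPKM + 1), a scale that understates changes of low genes, and the 15067 genes that averaged 0.5 FPKM or more entered limma 3.58.1 (R 4.3.3), whose prior variance was let depend on the mean. P-values were adjusted over all these genes by Benjamini-Hochberg, with a threshold of 0.05, and every p for a gene is from limma. Exact permutation of 3 libraries against 3 cannot give a p below 0.1 and was not used. Levels relative to Omp are ratios of FPKM within a library, and their log2 differences use log2(FPKM + 1). Depth was read from the value of 1 fragment in genes that have a single coding transcript no shorter than 1200 nt, less 150 nt at the ends, and is approximate, since lengths come from GRCm38 models. The genotype test was tried on simulated data.

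The 5 genes, the other gene lists and the tests were chosen with earlier results of these data known. Named were the 5 genes, Omp, Slc12a2 and 5 genes most like each member. Of each list at most 4 genes were named, by smallest p among those averaging 1 FPKM or more. Nphs1 and other named relatives come from these lists, while Hist2h2be was a list of its own. Kirrel, Pcp4, Th, Slc17a7, Slc32a1, Tbx21, Aqp4, Mog, Calr4 and Nr4a3 were chosen after their values were seen. Gnal, Adcy3 and Gng13 are named only as genes shared by lists, and Rtp1 only for its level per unit of Omp. Alternatives covered the pseudocount, the filter, 3 scalings, the prior variance, symbols on several rows, the omission of each library or of both mixed pools, pool kind as a model term, and other genes in place of Omp. Leaving out both female pools was added after the data were seen. Some genes of the lists are not reported here by name, while the list counts and medians include them.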

Additional observations from a re-analysis of the deposited data

How the results depend on the processing

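With each library left out, the difference between KO and WT ran from -2.14 to -1.43 for Kirrel2, -0.68 to -0.03 for Kirrel3, -1.51 to -1.24 for S100a5, -1.37 to -1.03 for Pcp4l1 and -1.29 to -0.77 for Lrrc3b, always negative. Under the 13 other settings these 5 values stayed within the spread between libraries, except S100a5 at -1.83 under quantile normalization. Several of these settings could not move them. The filters, the prior variance, pool kind as a model term and the sum of rows per symbol leave each difference unchanged. Relative to Omp, each of the 5 kept its direction in all settings run. The same settings again change nothing there, and scaling to equal medians or upper quartiles nearly cancels. With each library left out these values ran from -1.31 to -0.74 for Kirrel2, 0.25 to 0.64 for Kirrel3, -0.83 to -0.30 for S100a5, -0.57 to -0.26 for Pcp4l1 and -0.55 to -0.085 for Lrrc3b, and Lrrc3b came to -0.028 under quantile normalization. The cause was not tested.

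Genes higher and lower in KO over all genes numbered 12 and 18 with no filter on the mean, 72 and 193 with equal medians, 92 and 184 with equal upper quartiles, 93 and 177 under quantile normalization, 150 and 198 without both mixed pools, 88 and 201 with a term for mixed pools, and 150 and 290 with the kind of pool as a replicate block, against 32 and 94. With each library left out they ran from 15 to 184 and from 25 to 453. Of the 5 members, in the same order of settings, 0, 0, 2, 3, 1, 3 and 4 were lower, 2 with a prior variance without trend, and 0 to 3 with each library left out. Same-kind pools of the 2 genotypes deviated together in the mixed (correlation 0.36) and male (0.21) but not the female pools (-0.09). These correlations do not settle whether pools of a kind can be taken as pairs.

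Calls in the activity-linked axon-sorting list were 0 with no filter and 2 under each of the 3 scalings, and 0 to 2 with each library left out. In the list of relatives 1 was called with equal medians, equal upper quartiles, without both mixed pools, with the block and with the mixed term, and 2 under quantile normalization (0 to 1 with libraries left out). Transduction calls were 3 with equal medians, 2 with equal upper quartiles and 1 with the block (0 to 6). Mature neuron calls were 3 with equal medians or upper quartiles, 1 under quantile normalization and 2 with the block (0 to 4). Bulb and brain calls were 1 with equal medians, equal upper quartiles and without both mixed pools (0 to 1), horizontal basal calls 1 without both mixed pools (0 to 1), and Hist2h2be was called 0 to 1 times with libraries left out. Without both mixed pools the differences of Crmp1, Ermn and Tubb3, none of them called, turned to 0.082, 0.036 and 0.091, where the median of all genes moved to 0.14; for the product of genotype and female share no residual degrees of freedom were left.

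The effect of the female share ran, with libraries left out, from -1.36 to 0.019 for Kirrel2 and -0.29 to 1.02 for Kirrel3. The product with genotype turned to -0.78 and -0.71 for S100a5 and to -0.11 and -0.046 for Pcp4l1 with equal medians and equal upper quartiles, and with libraries left out ran from -1.09 to 3.98 for Kirrel2, -0.72 to 3.49 for Kirrel3, -0.60 to 0.88 for S100a5 and -0.99 to 2.96 for Lrrc3b. Of the named genes that are no members and were not called, 6 changed sign with a library left out, and their differences ran from -0.71 to 0.017 for Cntn4, -0.55 to 0.069 for Crmp1, -0.44 to 0.094 for Cyp1a2, -0.060 to 0.18 for Mbp, -0.081 to 0.42 for Neurod1 and -0.0099 to 0.49 for Neurog1.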

Other observations

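Genes that carry calcium signals to the nucleus, a list of 20 with calmodulins, calcium/calmodulin-dependent kinases, CREB-related factors and MEF2 factors, were all measured. None passed, and 1 was lower at an unadjusted p under 0.05 in limma, as were 4.62% of all genes. The median log2 difference was -0.10, against 0.01 for all genes. Calm2, a calmodulin gene, averaged 628 ± 98.6 FPKM in KO and 896 ± 134 FPKM in WT (SD, n = 3 each). The genotypes did not overlap for Calm2, though the margin was narrow, with 741 FPKM in the KO female and 742 FPKM in the WT female pool. Crem, a cAMP-responsive modulator, averaged 3.64 ± 1.33 FPKM in KO and 2.07 ± 1.27 FPKM in WT.

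Of 8 axon-targeting genes tied to agonist-independent receptor signalling or to position in the epithelium, 0 passed and 0 had an unadjusted p under 0.05 in limma, and the median difference was -0.24. Robo2, a receptor for Slit proteins, averaged 4.49 ± 1.1996 FPKM in KO and 6.92 ± 2.88 FPKM in WT, and the semaphorin co-receptor Nrp2 averaged 13.7 ± 3.05 FPKM in KO and 11.02 ± 4.10 FPKM in WT (SD, n = 3 each).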
